A study of Mus musculus with 2 samples.

Results

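The 31 genes described here carry the synthesis of cholesterol, the control of that synthesis, and the export, trafficking and storage of sterol. They were taken by symbol from the deposited gene tables, and each symbol matched 1 of the 43346 gene rows of each table. Brain tissue of an adult male mouse of the inbred strain C57BL/6J was profiled by polyA RNA-seq at an age of 10 weeks. The labels give 2 libraries, with 18302506 and 17828479 counts, as technical replicates 1 and 2 of biological replicate 1, and say that replicate 2 was added after the paper they cite. All belong to 1 group, with no treatment and no engineered allele, and a kit for lipid tissue was used to extract the RNA. The sources used here do not say whether 1 RNA extract served both libraries. The labels imply no comparison of conditions, so the comparison made is of replicate 2 with replicate 1. With 1 library on each side, the differences below have no replicate check, and variation between animals is not sampled.

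Cholesterol is built from acetyl-CoA through mevalonate, squalene and lanosterol, and most of these enzymes sit at or near the endoplasmic reticulum. The adult brain makes its own cholesterol, because lipoproteins of the blood hardly cross the blood-brain barrier, and much of it goes into myelin and membranes of neurons and glia. The SREBP transcription factors are held in the endoplasmic reticulum by Scap and the Insig proteins when sterol is ample, and are released to switch on the pathway when it is scarce. Surplus sterol leaves neurons mainly after hydroxylation by Cyp46a1, while LXR receptors respond to oxysterols and induce the transporters Abca1 and Abcg1.

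All 31 genes reached a transcript level of at least 1 TPM, a level per length with a fixed total per library, in replicate 2, and 27 did so in replicate 1. The genes below 1 TPM in replicate 1 were Mvk at 0.11, Srebf1 at 0.14, Scap at 0.31 and Mvd, which had 0 counts. Levels in replicate 2 lay between 7.63 TPM (Abca1) and 136.5 TPM (Hmgcs1), a 17.9-fold range with a median of 35.2. In replicate 1 the median was 7.45 TPM and the highest level was again that of Hmgcs1. The order of the genes was shared only in part: across the 31 genes, Spearman's rho of TPM between libraries was 0.34 and Pearson's r of log2(TPM + 1) was 0.39. Correlations across genes are given without a p throughout, as genes do not replicate each other. The summed level of the 31 genes was 674 TPM in replicate 1 and 1251 in replicate 2, a ratio of 1.86. Mitochondrial genes and their nuclear copies held 62.6% of all TPM in replicate 1 and 28.1% in replicate 2. With those 42 rows left out and the rest rescaled, the sums were 1802 and 1740, a ratio of 0.965. On that scale 18 of the genes were higher in replicate 2 and 13 lower, against 24 and 7 as deposited. In whole tissue, fewer cells of a type and less RNA per cell cannot be told apart.

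**Figure D1:**
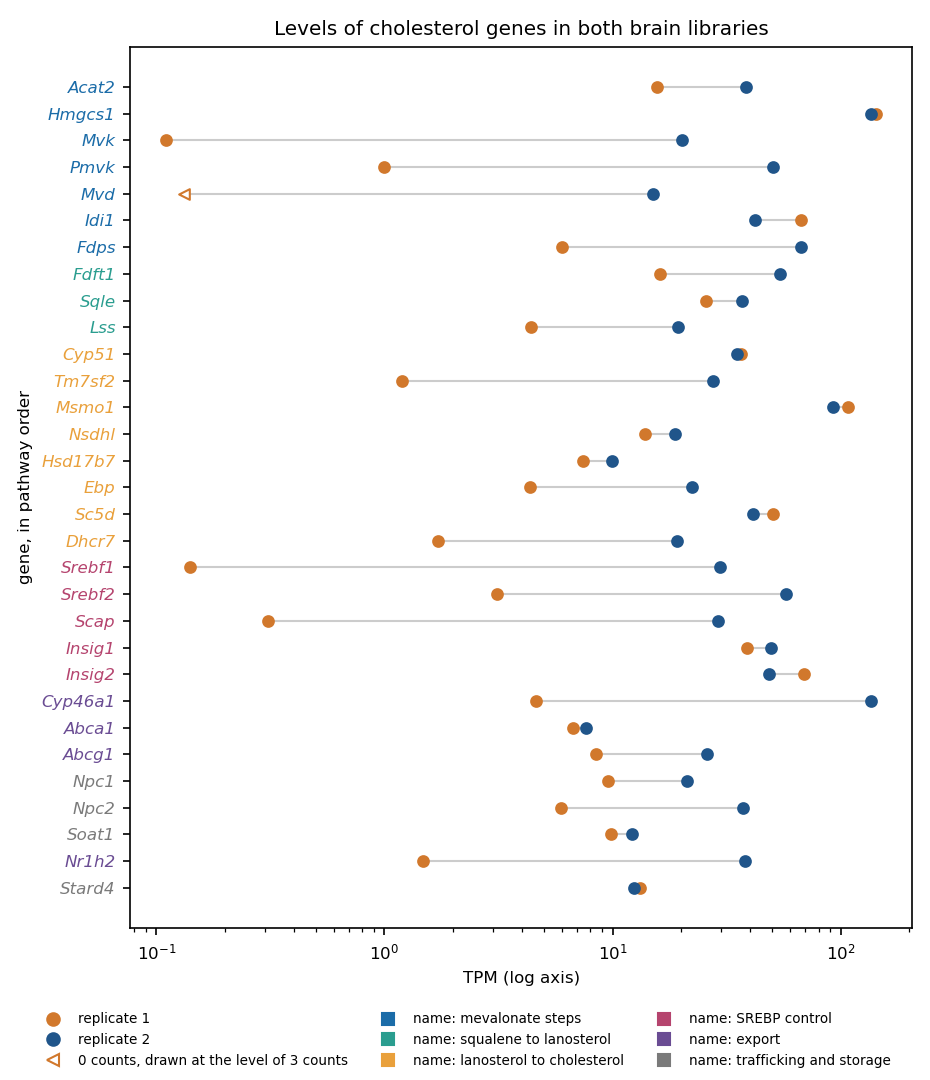
TPM (log axis) of each of the 31 genes in replicate 1 and replicate 2, in pathway order, with names coloured by step of the pathway and Mvd of replicate 1 drawn at the level of 3 counts. Hmgcs1, Cyp51 and Stard4 have nearly coinciding points. Those of Mvk, Pmvk, Mvd, Fdps, Tm7sf2, Dhcr7, Srebf1, Srebf2, Scap, Cyp46a1 and Nr1h2 are spread over more than 1 order of magnitude.

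For 16320 genes the read counts of both libraries were set against each other in an exact binomial test (two-sided). A gene was called where the Benjamini-Hochberg adjusted p was under 0.05 and the fold at least 2, with library sizes scaled by TMM, a method that centres the bulk of genes. Of the 31 genes, 13 (41.9%) were called higher in replicate 2, where 34.5% of all tested genes were, and 5 (16.1%) lower, where 23.8% of all were. Among these 18 genes the largest adjusted p was 3.5e-13 (Ebp, exact binomial test), a value that reflects counting error alone. The 13 others were not called: 12 had an adjusted p under 0.05 but missed the fold, and Lss was at 0.065. The higher genes were Mvk, Pmvk, Mvd, Fdps, Tm7sf2, Ebp, Dhcr7, Srebf1, Srebf2, Scap, Cyp46a1, Npc2 and Nr1h2. The lower genes were Hmgcs1, Idi1, Msmo1, Sc5d and Stard4. With plain library totals, which shift every log2 ratio by 0.61, Fdft1 and Abcg1 joined the higher genes, giving 15 (48.4%, against 43.4% of all tested genes). Only Idi1 was then lower (3.23%, against 7.83% of all). Over all tested genes the median log2 count ratio was 0.09 (TMM) or 0.70 (totals). TPM follows its own scaling, so a TPM ratio can differ from the call: 5 genes (Acat2, Fdft1, Lss, Abcg1 and Npc1) had over 2-fold more TPM in replicate 2 without being called. All 5 genes called lower had a TPM in replicate 2 above 0.5 times that in replicate 1.

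GC content, the share of G and C among the bases, differed widely among the 31 genes, and the coding sequence of a few of them shows the range. Below are the central 150 coding bases of 5 genes, read from GENCODE M21 transcripts and written 5′ to 3′ with G and C in capitals. Nr1h2 and Idi1 had the highest and the lowest GC content of the 31 genes, Mvd was added after its 0 counts in replicate 1 were seen, and Insig1 and Insig2 are paralogs with the same role.
Nr1h2-201: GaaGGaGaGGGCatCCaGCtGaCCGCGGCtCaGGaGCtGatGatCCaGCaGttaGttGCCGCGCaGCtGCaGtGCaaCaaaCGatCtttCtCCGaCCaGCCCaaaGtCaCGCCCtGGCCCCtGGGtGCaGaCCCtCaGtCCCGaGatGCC
Idi1-201: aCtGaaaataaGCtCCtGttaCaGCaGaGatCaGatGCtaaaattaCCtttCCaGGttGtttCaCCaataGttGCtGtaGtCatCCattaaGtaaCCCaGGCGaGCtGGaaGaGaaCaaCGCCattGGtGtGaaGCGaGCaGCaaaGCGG
Mvd-201: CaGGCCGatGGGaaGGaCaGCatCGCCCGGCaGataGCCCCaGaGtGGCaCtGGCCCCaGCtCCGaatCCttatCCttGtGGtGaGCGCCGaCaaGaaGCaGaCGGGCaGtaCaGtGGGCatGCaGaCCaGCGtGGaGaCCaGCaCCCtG
Insig1-201: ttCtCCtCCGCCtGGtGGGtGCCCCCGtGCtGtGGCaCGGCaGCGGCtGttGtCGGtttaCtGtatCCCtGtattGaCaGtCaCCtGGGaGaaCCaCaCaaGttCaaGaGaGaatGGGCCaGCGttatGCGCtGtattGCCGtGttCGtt
Insig2-201: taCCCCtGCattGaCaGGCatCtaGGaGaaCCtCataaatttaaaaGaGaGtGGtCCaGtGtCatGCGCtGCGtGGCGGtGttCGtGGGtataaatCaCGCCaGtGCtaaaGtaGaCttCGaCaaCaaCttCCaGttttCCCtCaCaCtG

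The stretch of Nr1h2 (coding bases 595 to 744) is 62.0% G and C, that of Mvd (526 to 675) 63.3% and that of Insig1 (313 to 462) 56.7%. Those of Insig2 (262 to 411) and Idi1 (349 to 498) are 48.0% and 45.3%. TPM in replicate 1 and replicate 2 was 1.48 and 38.05 for Nr1h2, 0 and 15.12 for Mvd, and 66.71 and 42.12 for Idi1. The stretches of the Insig pair can be laid over each other without gaps for 87 bases, of which 68 (78.2%) are identical. Within that overlap the GC content is 49.4% in Insig1 and 50.6% in Insig2, so the difference between the printed stretches lies in the bases outside it.

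The ratio between libraries followed the GC content of the whole transcripts among these genes. GC content went from 41.8% (Idi1) to 60.0% (Nr1h2) with a median of 50.1%, where the median of 14229 genes at a mean of at least 1 TPM was 49.9%. Spearman's rho of the log2 ratio of (TPM + 1) and GC content was 0.94 over the 31 genes (Pearson's r 0.96), and 0.89 over all genes. The rho of TPM itself with GC content was -0.87 in replicate 1 and 0.01 in replicate 2. With effective length the rho of the ratio was -0.3. The points share 2 libraries, and these values are descriptions.

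**Figure D2:**
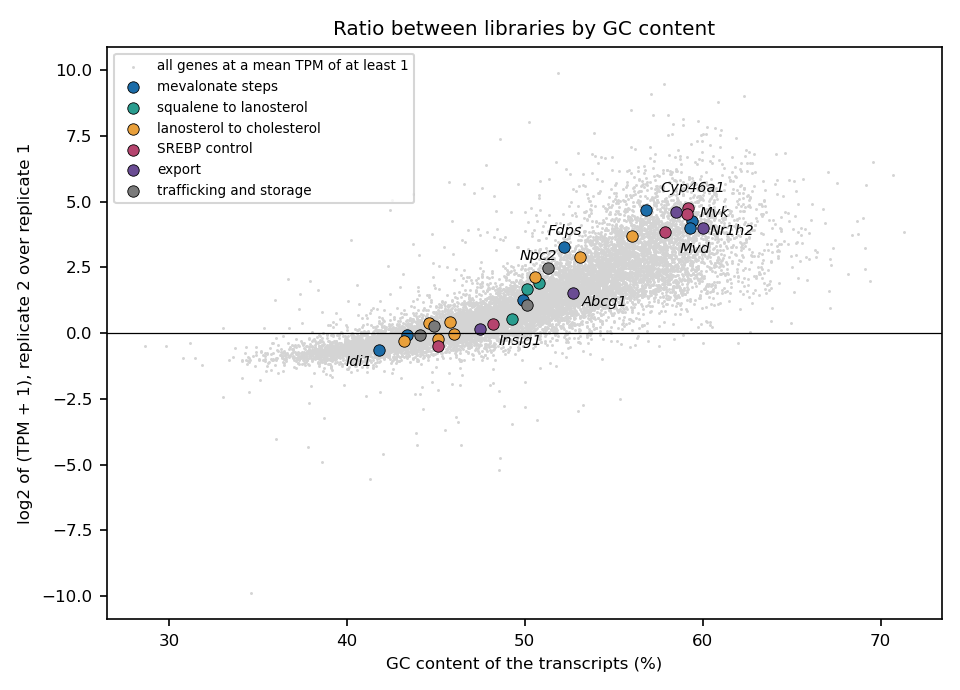
Log2 ratio of (TPM + 1), replicate 2 over replicate 1, against the GC content of the transcripts (%), for genes at a mean of at least 1 TPM (grey) and for the 31 genes coloured by step. The 31 genes run along the band of all genes, from Idi1 at 41.8% and a log2 ratio of -0.65 to Nr1h2 at 60.0% and 3.98.

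Set out by GC content, with bounds at 45, 50 and 55% set after the values were seen, the genes fell into 4 classes. The 6 genes under 45% had medians of 32.0 TPM in replicate 1 and 26.8 in replicate 2, and 0 were called higher and 4 lower, where 0.179% and 78.3% of all 3903 tested genes of that class were. The 8 genes from 45 to 50% had medians of 31.1 and 37.8 TPM, with 0 higher and 1 lower (3.23% and 16.1% of all 4335 of the class). The 8 genes from 50 to 55% had medians of 5.97 and 24.1 TPM, with 4 higher and 0 lower (47.1% and 1.96% of all 4193). All 9 genes at 55% or more were called higher, with medians of 1.00 and 29.5 TPM and no level above 4.6 TPM in replicate 1, in a class where 91.2% of all 3832 tested genes were called higher and 0.444% lower. Medians of the log2 ratio over these classes were -0.08, 0.26, 2.02 and 4.26, beside -0.39, 0.41, 1.60 and 3.14 for all genes of the same classes.

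The trend of the count ratio on GC content was also removed by a smooth fit over 16263 genes before the same exact binomial test. Then 8 of the 31 genes (25.8%) were called higher, where 10.3% of all tested genes were, and 0 lower, where 9.05% of all were. The 8 genes were Mvk, Pmvk, Mvd, Fdps, Dhcr7, Srebf1, Scap and Npc2. Their GC content was between 51.3% (Npc2) and 59.4% (Mvk), and Mvk, Pmvk, Mvd, Srebf1 and Scap had 18 or fewer counts in replicate 1. No share for genes of like GC content or level is given for this setting, so the 25.8% is not shown to be particular to the pathway. At an unadjusted p under 0.05 (exact binomial test), with no minimum fold, 13 genes were higher and 9 lower. The share of all tested genes at that line is not given, so these counts are not a result about the 31 genes. Cyp46a1 went from a log2 count ratio of 3.89 to 0.02, and Nr1h2 from 5.03 to 0.58. The ratio of Srebf2 went from 3.23 to -0.40, and those of Hmgcs1 and Sc5d from -1.05 and -1.21 to 0.14 and 0.02. In all, 10 of the 31 ratios changed sign, those 3 and 7 of genes not called with TMM sizes. Across the 31 genes the rho of the remaining ratio and GC content was 0.49, and no value over all genes is given beside it.

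**Figure D3:**
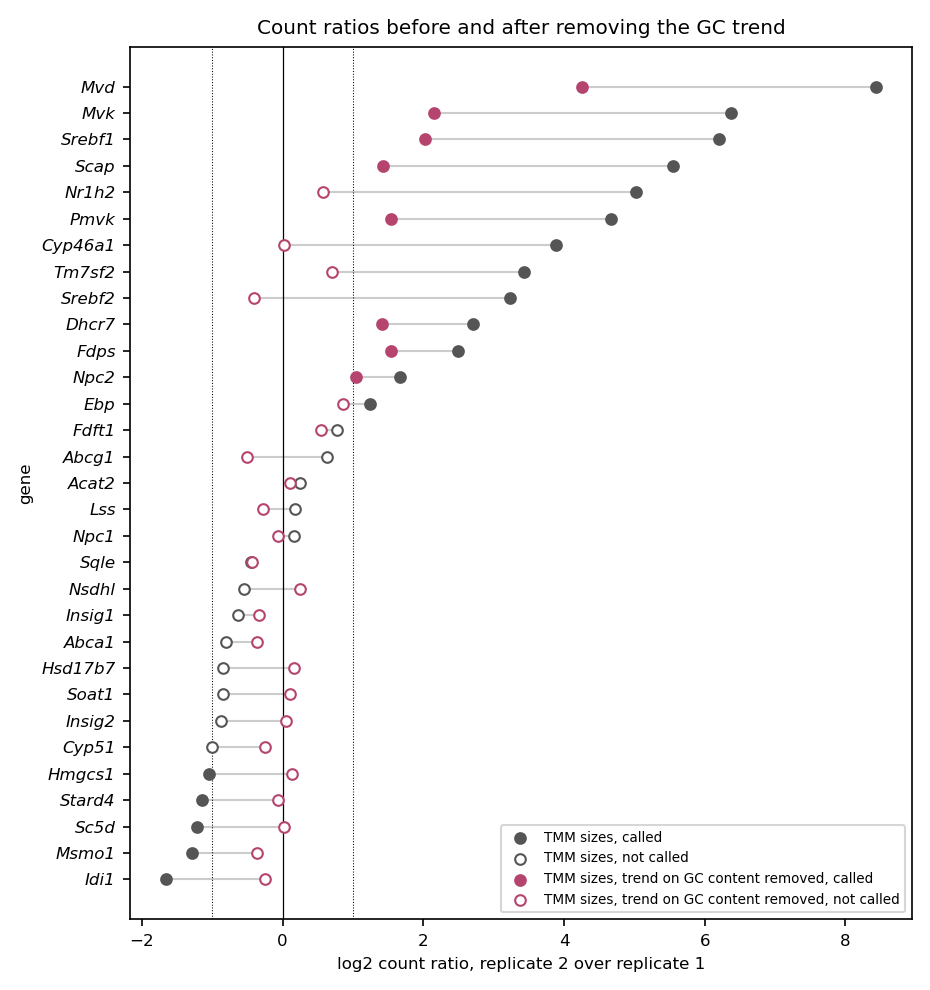
Log2 count ratio of each gene, replicate 2 over replicate 1, with TMM sizes (grey) and after removal of the trend on GC content (red), filled where called and open where not, with dotted lines at a 2-fold difference. After removal 23 genes are uncalled and the filled red points are the 8 genes called higher.

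TPM ratios of the mevalonate enzymes went from below 1 (Idi1 and Hmgcs1) to over 100 (Mvk, and Mvd as a lower bound). Of the 7 genes 4 were called higher in replicate 2 and 2 lower (34.5% and 23.8% of all tested genes), and their summed level was 233 TPM in replicate 1 and 369 in replicate 2. Hmgcs1, the cytosolic HMG-CoA synthase (ENSMUSG00000093930.1, chromosome 13, 119690379 to 119708260, GRCm38), had 6293 and 4507 counts and a TPM of 144 and 136.5 (140 ± 5.01, SD, n = 2). It had the highest level of the 31 genes in each library. Its TPM ratio was 0.951 (95% counting interval 0.915 to 0.988), and on TMM sizes it was called lower with a log2 count ratio of -1.05 (adjusted p = 2.5e-311, exact binomial test). That call ended with library totals (-0.44) and with DESeq2 size factors (-1.0, just inside the 2-fold line). Idi1, the isopentenyl diphosphate isomerase (chromosome 13, 8885501 to 8892451), had 2717 and 1281 counts, 66.71 and 42.12 TPM and a ratio of 0.631 (0.590 to 0.675). It was the gene called lower with TMM sizes and with totals alike, and it was uncalled at -0.25 after the GC trend was removed.

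Between these abundant enzymes lie the kinases and the decarboxylase, which were scarce in replicate 1. Mvk, the mevalonate kinase (chromosome 5, 114444269 to 114460591), had 2 and 308 counts and 0.11 and 20.25 TPM, a ratio of 184 (50.5 to 1527). Its deposited posterior mean TPM was 0.75 and 19.53, so the size of that ratio depends on the estimate used. Pmvk, which adds the next phosphate (chromosome 3, 89454541 to 89469013), had 14 and 549 counts and 1.00 and 50.32 TPM, a ratio of 50.3 (29.7 to 92.7). Mvd, the mevalonate diphosphate decarboxylase (chromosome 8, 122433601 to 122443422), had 0 and 258 counts. At 15.12 TPM in replicate 2 it was at least 114-fold higher than the level of 3 counts in replicate 1, which is 0.132 TPM. Within replicate 1 the level of Hmgcs1 was 144 times that of Pmvk, and within replicate 2 it was 2.71 times. All 3 of these genes stayed called higher after the GC trend was removed, with a log2 count ratio of 2.15 for Mvk and 1.54 for Pmvk. The value for Mvd, 4.25, depends on the 0.5 added to a count of 0.

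Acat2, the thiolase that joins acetyl-CoA units, had 465 and 824 counts and 15.73 and 38.41 TPM, and was not called. Fdps, the farnesyl diphosphate synthase (chromosome 3, 89093588 to 89101959), had 91 and 763 counts and 5.98 and 66.77 TPM, a ratio of 11.2 (8.97 to 14), and was called higher with and without the GC trend. Reads of 4 of the 31 genes are hard to assign, since over 10% of the 50-base words of their main coding transcript also occur in transcripts of other genes of GENCODE M21. The shares were 82.0% for Fdps, 45.9% for Acat2, 21.3% for Idi1 and 14.1% for Fdft1. For Fdps 71.7% are shared with Gm43738, which has no row in the deposited gene tables. Its reads were thus not counted apart there and could not be added below. The pseudogene Gm13502, which shares words with Idi1, had 209 and 0 counts in these libraries, and Acat3, which shares words with Acat2, had 65 and 120. Adding the counts of measured copies left each of the 4 genes on the same side of the threshold, a step chosen after the values were seen. The log2 count ratios were then 2.49 for Fdps, 0.26 for Acat2, -1.76 for Idi1 and 0.78 for Fdft1. In the annotation 10 of the 31 genes share exon bases with another gene, and 5 of them (Hmgcs1, Fdps, Fdft1, Tm7sf2 and Scap) over 10% of theirs, so their values are less certain. For Fdps the other gene is again Gm43738, on the same strand.

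Squalene synthase, squalene epoxidase and lanosterol synthase, which commit the pathway to sterols, were not called in either direction with TMM sizes, and their summed level was 46.2 TPM in replicate 1 and 111 in replicate 2. Fdft1, the synthase, had 620 and 1577 counts and 16.12 and 54.42 TPM, a ratio of 3.38 (3.07 to 3.71). It shares 774 exon bases (18.3%) with the cathepsin gene Ctsb on the opposite strand, and the sources used here do not say whether counting used the strand. Sqle, the epoxidase (chromosome 15, 59315077 to 59331192), had 954 and 1041 counts and 25.64 and 37.14 TPM (31.4 ± 8.13, SD, n = 2).

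Lss, the lanosterol synthase (chromosome 10, 76531588 to 76557138), had 383 and 646 counts and 4.39 and 19.28 TPM. The effective length depends on how reads are divided among transcripts and was 6069 bases in replicate 1 but 3091 in replicate 2. Retained-intron transcripts took 100% of its counts in replicate 1 and 74.2% in replicate 2 (383 and 479 counts). The protein-coding transcripts thus were listed at 0% of the gene's TPM in replicate 1 and 24.7% in replicate 2. The log2 count ratio of Lss as a whole was 0.18 (exact binomial test, Benjamini-Hochberg adjusted p = 0.065).

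The 8 enzymes from lanosterol to cholesterol had similar sums of 223 TPM in replicate 1 and 266 in replicate 2, with 3 called higher and 2 lower (34.5% and 23.8% of all tested genes). Msmo1, the methylsterol monooxygenase (chromosome 8, 64718139 to 64733792), was the highest of them, with 2866 and 1758 counts and 107 and 92.43 TPM (99.9 ± 10.6, SD, n = 2). It was called lower with TMM sizes, but not with library totals (log2 count ratio -0.67) or after the GC trend was removed (-0.36). Nsdhl and Hsd17b7, which act with Msmo1 to remove methyl groups from the sterol ring, had 13.88 and 18.70 TPM (Nsdhl) or 7.45 and 9.94 TPM (Hsd17b7), and neither was called. The step before them, the demethylation by Cyp51 (chromosome 5, 4081145 to 4104746), was measured at 36.50 and 35.20 TPM, with 1876 and 1396 counts and a ratio whose counting interval includes 1 (0.964, 0.899 to 1.03). The log2 count ratio of Cyp51 with TMM sizes was -1.0 (exact binomial test, Benjamini-Hochberg adjusted p = 7.2e-86), just inside the 2-fold line and so uncalled. It was called lower with posterior mean counts (-1.0, just past the line) and with the trend on length removed (-1.03). Sc5d, a sterol desaturase, had 1416 and 913 counts and 50.70 and 41.19 TPM. Its log2 count ratio was -1.21 with TMM sizes, a call that ended with library totals (-0.59) and after the GC trend was removed (0.02).

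Of these late-step enzymes, Tm7sf2, Dhcr7 and Ebp were the ones called higher. Tm7sf2, a sterol reductase of the nuclear and endoplasmic reticulum membranes (chromosome 19, 6062821 to 6068373), had 18 and 297 counts and 1.20 and 27.55 TPM, a ratio of 23.0 (14.3 to 39.3). Retained-intron transcripts took 83.3% of its counts in replicate 1 and 23.5% in replicate 2, and it shares 532 exon bases (12.1%) with Vps51 on the same strand. Dhcr7, the reductase of the last step (chromosome 7, 143823145 to 143848410), had 50 and 490 counts and 1.71 and 19.08 TPM, a ratio of 11.2 (8.33 to 15.2). It remained called after the GC trend was removed, with a log2 count ratio of 1.41. Ebp, the sterol isomerase (chromosome X, 8185329 to 8193512), had 83 and 292 counts and 4.34 and 22.33 TPM, a ratio of 5.15 (4.02 to 6.65). Removal of the GC trend left Ebp at 0.86 and Tm7sf2 at 0.70, under the 2-fold line. Removal of the trend on length also ended the call of Ebp, with a log2 count ratio of 0.36 (exact binomial test, Benjamini-Hochberg adjusted p = 0.054).

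Of the 5 genes that control the pathway, the SREBP factors and their escort were called higher in replicate 2 and the Insig genes were not called, which makes 3 higher and 0 lower (34.5% and 23.8% of all tested genes). Srebf1, which mostly drives fatty acid genes (chromosome 11, 60199089 to 60222581), had 8 and 927 counts and 0.14 and 29.50 TPM, a ratio of 211 (106 to 490). Srebf2, the main driver of cholesterol genes (chromosome 15, 82147181 to 82205379), had 215 and 3006 counts and 3.11 and 57.75 TPM, a ratio of 18.6 (16.2 to 21.4). Scap, their escort (chromosome 9, 110333288 to 110384950), had 18 and 1291 counts and 0.31 and 29.13 TPM, a ratio of 94.0 (59.2 to 159). All 3 have a GC content between 57.9 and 59.2%. The level of Srebf2 was 22.2 times that of Srebf1 in replicate 1, where Srebf1 rests on 8 counts, and 1.96 times in replicate 2. By posterior mean TPM, Srebf2 and Srebf1 were at 2.95 and 1.64 in replicate 1 and at 53.24 and 32.56 in replicate 2. The value of 22.2 thus depends on the estimate used. After the GC trend was removed Srebf1 (log2 count ratio 2.02) and Scap (1.43) were still called higher, and Srebf2 was not.

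The Insig genes, whose products hold Scap in place, were abundant in both libraries. Insig1 (chromosome 5, 28071363 to 28078662) had 1402 and 1350 counts and 38.81 and 49.62 TPM (44.2 ± 7.64, SD, n = 2). Insig2 (chromosome 1, 121304353 to 121332589) had 1246 and 1015 counts and 68.94 and 48.35 TPM (58.6 ± 14.6, SD, n = 2), and of the settings run it was called lower only with the trend on length removed (log2 count ratio -1.48). Insig2 was thus above Insig1 in replicate 1, at 1.78 times its level, and close to it in replicate 2, at 0.974 times. A retained-intron transcript of 334 bases, Insig2-206, took 51.2% of the gene's TPM in replicate 1 on 77.9 counts and 17.3% in replicate 2, so the per-length level in replicate 1 leans on a short transcript. Insig1 was at 125 times the level of Scap in replicate 1 and at 1.70 times in replicate 2.

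In Insig1 the parts of the transcript differ in GC content. Its coding part is 58.2% G and C, near that of Scap or Srebf2, but its 3′ untranslated part of 1842 bases is 43.1%, and its TPM ratio between libraries was 1.28 (1.19 to 1.38). Scap and Tm7sf2 have shorter 3′ parts (149 and 92 bases) of similar GC content (44.3% and 41.3%), with log2 ratios of 4.52 and 3.7. Which part matters was not tested. Over the main coding transcript of each of the 31 genes, rho of the log2 ratio was 0.87 with the GC content of the coding part, 0.81 with that of the 3′ untranslated part and 0.03 with that of the 5′ untranslated part. With the whole transcript it was 0.93. The 5′ part was the richest, with a median of 63.3% against 52.3% for the coding and 44.3% for the 3′ part.

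**Figure D4:**
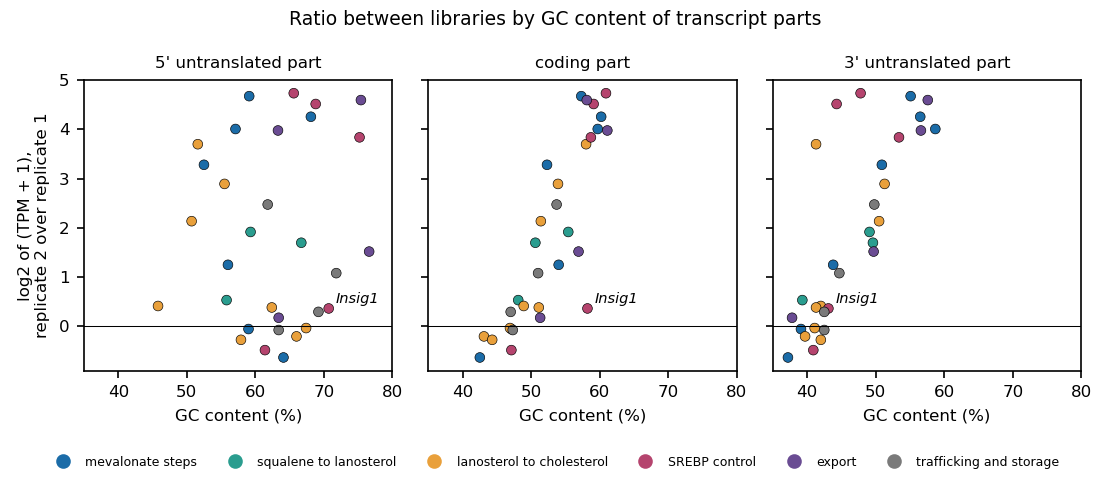
Log2 ratio of (TPM + 1), replicate 2 over replicate 1, against the GC content (%) of the 5′ untranslated, coding and 3′ untranslated part of the main coding transcript, with 1 point per gene coloured by step. The points rise with GC content in the coding and 3′ panels and scatter in the 5′ panel, and Insig1 stands to the right of the others of its ratio in the coding panel.

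Of the 6 groups of genes, export had the largest ratio of summed levels, with 21.3 TPM in replicate 1 and 207 in replicate 2. Of its 4 genes, 2 (Cyp46a1 and the receptor gene Nr1h2) were called higher and 0 lower with TMM sizes (34.5% and 23.8% of all tested genes). Cyp46a1, the neuronal hydroxylase that makes cholesterol ready to leave the brain (chromosome 12, 108334381 to 108362234), had 128 and 2833 counts and 4.6 and 135 TPM, a ratio of 29.4 (24.6 to 35.4). The level of Hmgcs1 was 1.01 times that of Cyp46a1 in replicate 2 and 31.2 times in replicate 1. Nr1h2, the LXR beta receptor (chromosome 7, 44549616 to 44553951), had 13 and 656 counts and 1.48 and 38.05 TPM, a ratio of 25.7 (14.9 to 48.5). Its effective length was 612 bases in replicate 1 and 1590 in replicate 2, and its posterior mean TPM was 3.82 and 39.27. Both were called higher with TMM sizes and with totals, and neither after the GC trend was removed.

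The transporters differed less. Abca1, which loads cholesterol onto apolipoproteins (chromosome 4, 53030787 to 53159895), had 971 and 828 counts and 6.70 and 7.63 TPM (7.17 ± 0.658, SD, n = 2), the lowest level of the 31 genes in replicate 2. Abcg1, which passes sterol to lipoprotein particles (chromosome 17, 31057675 to 31117988), had 417 and 961 counts and 8.47 and 25.90 TPM, a ratio of 3.06 (2.72 to 3.44). Abcg1 was at 1.26 times the level of Abca1 in replicate 1 and at 3.39 times in replicate 2. Its log2 count ratio was 0.63 with TMM sizes and -0.50 after the GC trend was removed, without a call in either case.

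Trafficking and storage genes summed to 38.6 TPM in replicate 1 and 83.2 in replicate 2, with 1 called higher and 1 lower (34.5% and 23.8% of all tested genes). Npc2, the soluble lysosomal sterol carrier (chromosome 12, 84754562 to 84773152), had 264 and 1250 counts and 5.97 and 37.51 TPM, a ratio of 6.28 (5.50 to 7.2). Its log2 count ratio was 1.67 with TMM sizes and 1.04 after the GC trend was removed, close to the 2-fold line but called in both. Npc1, the membrane protein that takes the sterol from Npc2, had 693 and 1154 counts and 9.56 and 21.13 TPM, and was not called. Npc2 was at 0.624 times the level of Npc1 in replicate 1 and at 1.78 times in replicate 2. Soat1, which esterifies cholesterol for storage, was at 9.81 and 12.13 TPM, and Stard4, a cytosolic sterol carrier, at 13.26 and 12.41 TPM. The counts of Stard4 were 922 and 621, and it was called lower with TMM sizes, with a log2 count ratio of -1.14. The call was lost with library totals (-0.53), with the GC trend removed (-0.06) and with the trend on length removed (-0.99).

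Of the 31 genes 22 have several annotated transcripts, and the leading transcript was the same in both libraries for 14 of these. It differed for Mvk, Pmvk, Lss, Tm7sf2, Srebf1, Insig2, Soat1 and Nr1h2. Soat1 was nearly tied in replicate 1, with Soat1-201 at 49.2% and Soat1-207 at 48.7%, and by posterior means Soat1-207 led in both libraries. For Pmvk, the coding transcript Pmvk-203 held 100% of the gene's TPM in replicate 1, and Pmvk-201 held 98.4% in replicate 2. For Srebf1, Srebf1-203 held 100% on 8 counts in replicate 1, and Srebf1-201 led with 37.7% in replicate 2. For Nr1h2, the short Nr1h2-212 held 78.2% on 6 counts in replicate 1, and Nr1h2-201 led with 48.0% in replicate 2. In Mvk, Pmvk, Tm7sf2, Srebf1 and Nr1h2 the leading transcript of replicate 1 rests on fewer than 20 counts of the whole gene. Coding transcripts held at least 95% of TPM in 14 of the 22 genes in replicate 1 and in 13 in replicate 2.

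**Figure D5:**
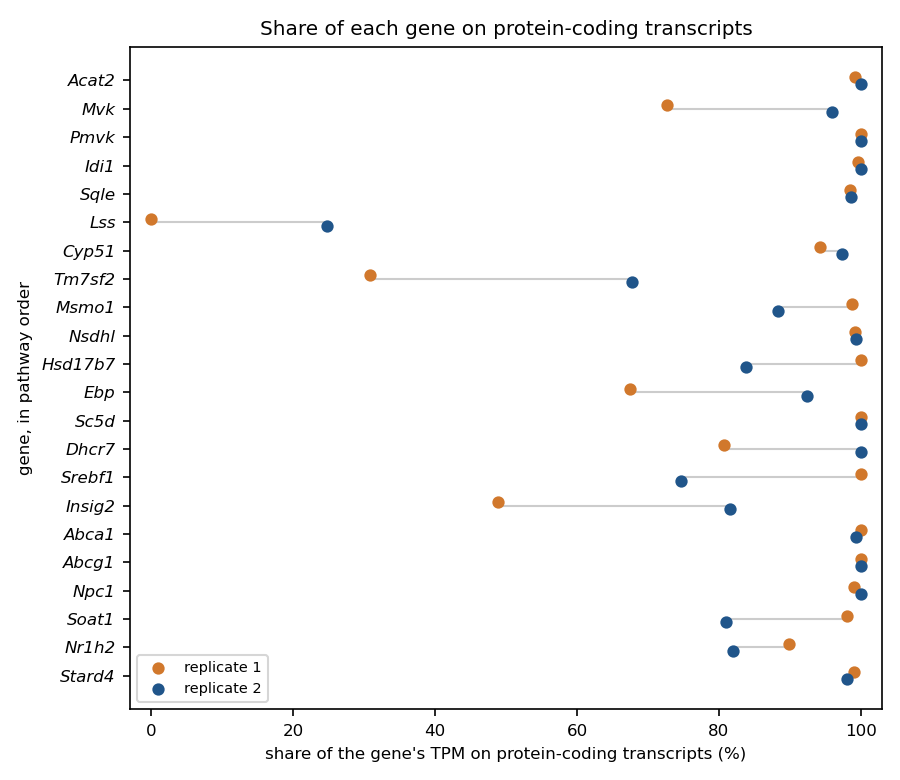
Share of each gene's TPM (%) on protein-coding transcripts in replicate 1 and replicate 2, for the 22 genes with several annotated transcripts. In 10 of the 22 genes both points lie at 95% or more, Lss goes from 0% to 24.7% and Tm7sf2 from 30.8% to 67.8%, and Insig2 has 48.8% and 81.6%.

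Promoters were searched for the short elements through which the pathway is known to be switched, in RefSeq promoter sequences of build GRCm38.p6 that run from 250 bases before to 50 after each start. They hold 33 promoters for 25 of the 31 genes, among 32851 promoters in all. The sterol regulatory element was searched as an exact string that extends the core CACCCCAC by 2 bases at its 5′ end. That string was in 0 of the 33, and in 0.0913% of all promoters. Apart from the core, no other form of the element was searched. The 0 thus does not show that these promoters lack the element. The core, searched on both strands as were all motifs, was in the promoters of Hmgcs1 and Acat2 (6.06%, against 2.87% of all). The E-box form CACGTG was in 21.2% of the 33 promoters and 7.15% of all, and CATGTG in 6.06% and 14.2%. The CCAAT box was in 66.7% of the 33 and 37.4% of all, and the GC box GGGCGG in 81.8% and 35.7%. A match is a description of letters, not of binding. The promoters of the pair that hold the core are printed 5′ to 3′ on the gene's strand with the core in capitals, for Hmgcs1 at chr13:119690101-119690400 (plus strand, core beginning 136 bases before the start) and for Acat2 at chr17:12960676-12960975 (minus strand, 181 bases before the start).
Hmgcs1 promoter: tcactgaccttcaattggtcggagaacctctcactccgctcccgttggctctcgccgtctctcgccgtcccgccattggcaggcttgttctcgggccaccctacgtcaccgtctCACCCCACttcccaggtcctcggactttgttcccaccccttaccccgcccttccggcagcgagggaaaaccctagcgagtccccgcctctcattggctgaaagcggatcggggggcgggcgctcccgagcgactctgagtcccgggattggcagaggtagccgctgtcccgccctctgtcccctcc
Acat2 promoter: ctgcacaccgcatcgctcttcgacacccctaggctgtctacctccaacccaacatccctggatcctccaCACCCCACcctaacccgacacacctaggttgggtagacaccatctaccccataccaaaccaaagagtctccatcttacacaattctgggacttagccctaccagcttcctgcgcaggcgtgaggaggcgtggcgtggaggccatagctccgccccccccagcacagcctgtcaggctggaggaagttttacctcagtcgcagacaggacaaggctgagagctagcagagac

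The printed Hmgcs1 promoter is 65.7% G and C and that of Acat2 58.7%. Their genes had TPM ratios between libraries of 0.951 and 2.44, with transcripts of 43.4% and 49.9% GC content.

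Among 45 other sterol and lipid genes chosen by role, 44 were tested, and 15 were called higher in replicate 2 and 11 lower with TMM sizes. These are 34.1% and 25.0% of the 44, near the 34.5% and 23.8% of all tested genes. With library totals the counts were 19 and 3 (43.2% and 6.82%, against 43.4% and 7.83% of all). After removal of the GC trend they were 5 and 1 (11.4% and 2.27%, against 10.3% and 9.05% of all). Their median log2 ratio of (TPM + 1) was 0.57, beside 1.51 for the 31 genes and 0.88 for all genes at a mean of at least 1 TPM. Fatty acid targets of SREBP had 1 of 8 higher and 1 lower, with Scd2, a brain desaturase, the most abundant at 304 and 488 TPM, and Fasn, the fatty acid synthase, at 0.86 and 83.48 TPM. Transporters and sterol carriers had 5 of 12 higher and 1 lower, with Osbpl1a at 222 and 256 TPM, Scp2 at 52.86 and 170 and Abca2 at 2.25 and 72.41. Scp2 had 1841 and 1813 counts and was not called with TMM sizes (log2 count ratio -0.59). Its effective length was 2424 bases in replicate 1 and 984 in replicate 2, and with the trend on length removed it was called lower (-1.12). Effective lengths also differed for Abca2 (1332 and 6239 bases) and Fasn (9404 and 4569), which were both called higher. Oxysterol enzymes and nuclear receptors had 5 of 9 tested higher and 3 lower, with Rxrb, a partner of LXR, at 1.09 and 49.33 TPM. Genes of SREBP processing and sterol-regulated degradation had 2 of 8 higher and 2 lower, with the protease gene Mbtps2 at 22.25 and 13.81 TPM. The isoprenoid branch, which leaves the pathway at farnesyl diphosphate, had 2 of 7 higher and 4 lower, with Ggps1 at 46.23 and 29.66 TPM and Nus1 at 67.01 and 39.70.

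Both libraries held defining markers of neurons and glia, as the label brain implies. Summed TPM was 4363 and 4069 for 5 neuronal genes (Snap25 at 3457 and 2764, Syt1 at 503 and 570). Of the myelin genes of oligodendrocytes, Mobp was at 694 and 831 TPM, Mog at 43.46 and 84.59, Cnp at 29.69 and 256, and Mag at 14.36 and 224. The summed TPM of 5 astrocyte genes was 791 and 1636 (Aldoc at 199 and 1022, Slc1a2 at 397 and 346). The 4 microglial genes summed to 64.0 and 168 TPM (P2ry12 at 47.71 and 34.03, C1qa at 1.95 and 70.51). The 4 endothelial genes summed to 93.1 and 122 (Slco1a4 at 77.98 and 43.24, Cldn5 at 0.40 and 48.64). With TMM sizes the neuronal, astrocyte, microglial and endothelial lists each held genes called higher and genes called lower. Cnp and Mag were called higher, with log2 count ratios of 2.07 and 4.07, and Mobp and Mog were not called. After the GC trend was removed these ratios were -0.37 and 0.93, without a call. In other lists Alb of hepatocytes (4.79), Cldn5 (1.28) and the microglial Csf1r (1.05) were then called higher, where 10.3% of all tested genes were. The neuronal Rbfox3 was then called lower (-1.57, from 2.07 with TMM sizes), where 9.05% of all were. Hepatocyte genes, of the other organ that makes much cholesterol, summed to 0.4 and 11.9 TPM, with Alb at 0.11 and 5.22, Apoa2 at 0.25 and 4.77, and Cyp7a1, the bile acid enzyme, at 0 counts in both. With TMM sizes 3 of the 4 tested hepatocyte genes were called higher, where 34.5% of all tested genes were. The counts of Alb were 3 and 105. The 4 steroidogenic genes summed to 1.04 and 4.58 TPM, with Cyp11a1 at 0.43 and 3.85, Star at 0.61 and 0.67, and Hsd3b1 at 0 counts in both. The part of cell composition in the differences of the 31 genes was not tested.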

How the data were processed

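PolyA RNA-seq of brain tissue from 1 mouse gave 2 libraries, with total expected counts of 18302506 in replicate 1 and 17828479 in replicate 2. The authors deposited, per gene and per transcript, expected counts, which are estimates and need not be whole, and TPM, which is scaled to a fixed total per library. The percent of a gene's TPM on each transcript was deposited in the transcript tables, and posterior mean versions of each stand beside them, per the file headers. Genome mm10 and annotation GENCODE M4 are named in the listings deposited with the tables. Column names match RSEM output, but the sources used here name no aligner, quantifier or version. Rows without a gene identifier held 0 counts in replicate 1 and 1 in replicate 2 and were left out.

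Symbols, positions, biotypes and transcript sequences came from GENCODE M21 (GRCm38), matched by identifier without version, and 42462 genes had a symbol. The main coding transcript had its deposited length in M21 for 21 of the 31 genes, so GC content by part is approximate for the others. GC content of a gene averages its transcripts with their mean TPM as weights. Promoters came from RefSeq (GRCm38.p6). Exon overlap and shared 50-base words were counted in M21.

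Genes whose rounded expected counts summed to 10 or more entered a two-sided exact binomial test with TMM sizes (edgeR 4.0.16, R 4.3.3) and Benjamini-Hochberg adjustment over all tested genes, and folds were taken after adding 0.5 to both counts. Neither edgeR's quasi-likelihood test nor DESeq2's own test could be fitted without replicates, so the values compare libraries, not conditions. Alternatives used library totals, DESeq2 1.42.0 size factors, no count minimum, posterior means, and lowess trends (fraction 0.2, statsmodels 0.14.6) on GC content or length. The test was checked on simulated data with 200 changed genes, none of few counts, drawn with counting error alone and no trend on GC content. That check thus does not cover changes in genes of few counts or libraries that differ along GC content. Log2 ratios of TPM add 1 to each value, which understates the change of low genes. Intervals are exact (Clopper-Pearson, 95%) and, like the floor of 3 counts (a share of 1.6e-05% for replicate 1, 1.7e-05% for replicate 2), cover counting error only. They do not cover the error of dividing reads among transcripts. Tables, tests and plots were made with scipy 1.17.1, pandas 2.3.3, numpy 2.4.6 and matplotlib 3.10.9 in Python 3.11.15.

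The 31 genes and the lists were chosen with earlier results of these data known. Named by rule were all 31 genes, the 3 other sterol and lipid genes of highest mean TPM and the called ones with the 3 highest and 3 lowest ratios, and the 2 markers of highest mean TPM per list, except 1 item that is not reported here. Genes named beside these, and the bounds of the GC classes, were chosen after their values were seen.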

Additional observations from a re-analysis of the deposited data

How the results depend on the processing

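With the GC trend removed, 8 of the 31 genes were called, 8 of them higher and 0 lower, in place of 18, and the log2 count ratio changed sign for 10 genes, of which Hmgcs1 (0.14), Sc5d (0.02) and Srebf2 (-0.40) had been called. Among the other sterol and lipid genes that setting left 6 called, 5 higher and 1 lower. With library totals 1 of the 31 genes and 3 of the other sterol and lipid genes were called lower. The median log2 ratio of the 31 genes was 0.65 with TPM rescaled without mitochondrial genes, 0.25 as a count ratio with TMM sizes and 0.86 with totals, in place of 1.51. For all genes at a mean of at least 1 TPM the median was 0.11 when rescaled, in place of 0.88. For all tested genes the count ratio had a median of 0.09 with TMM sizes and 0.70 with totals. The rescaled sums of the 31 genes were 1802 TPM in replicate 1 and 1740 in replicate 2. DESeq2 size factors, no count minimum, posterior mean counts and removal of the length trend gave numbers of calls within 1.5 times those reported, although single calls were lost (Hmgcs1 with DESeq2 size factors, Ebp and Stard4 with the length trend removed) or gained (Cyp51 with posterior means, Cyp51 and Insig2 with the length trend removed). No paired analysis was possible because there was 1 group. With posterior mean TPM the median log2 ratio was 1.46. Single ratios then fell for Mvk (3.55 in place of 4.26), Srebf1 (3.67 in place of 4.74) and Nr1h2 (3.06 in place of 3.98). They also fell for Tm7sf2 (3.02 in place of 3.7) and Dhcr7 (2.37 in place of 2.89). With 0.1 added to each TPM in place of 1, Mvk rose to 6.6 and Srebf1 to 6.95. The counts in replicate 1 limit the precision for Mvk, Mvd, Srebf1, Nr1h2, Pmvk, Scap and Tm7sf2, each with fewer than 20. Leaving out a library leaves the TPM of the other, with no spread.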
